A study of Mus musculus with 18 samples.

Results

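The liver genes of glucose uptake, glycolysis and fructose use, Gckr, Slc2a2, Gpi1, Pfkl, Pfkfb1, Pklr, Khk and Pdk4, were followed by RNA-seq in mice with streptozotocin diabetes. The rule took every row of the expression table with one of these 8 symbols, which gave 8 of 19057 gene rows. The rule read symbols alone, but the list of symbols was drawn up with earlier results of these data known. The study asked whether transferring gut microbiota from mice fed alginate oligosaccharide (AOS, short sugar chains cut from the alginate of brown seaweed) improved sperm formation and semen quality in diabetic males, and the liver was examined as part of the wider body. All animals were male ICR mice, an outbred stock, and livers were labelled as taken at 10 weeks of age, with 3 mice in each of 6 groups and 1 library per mouse. Con mice had saline and a regular diet. STZ mice were given streptozotocin, a toxin taken up by pancreatic beta cells that lowers insulin. A10-FMT mice had streptozotocin followed by gut microbiota of donors dosed with AOS at 10 mg/kg, and Con-FMT mice had streptozotocin followed by microbiota of donors without AOS. AOS mice had AOS at 10 mg/kg without streptozotocin, and STZ+AOS mice had both agents. The AOS and STZ+AOS groups are known from the sample labels alone, and the route and timing of their AOS were not stated. Donor material was pooled per donor group before the transfer, so that all mice of a transplant group shared the same inoculum, and both transplant groups carried streptozotocin as well.

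The liver takes up glucose through Slc2a2 (GLUT2), a transporter of low affinity that also passes fructose. Gckr encodes a nuclear regulatory protein that tunes how fast the hepatocyte phosphorylates glucose. Gpi1, Pfkl and Pklr encode enzymes of glycolysis in the order phosphoglucose isomerase, liver phosphofructokinase and liver pyruvate kinase. Pfkfb1 encodes the enzyme that makes and removes fructose 2,6-bisphosphate, the activator of phosphofructokinase. Khk encodes ketohexokinase, the entry enzyme of fructose, and Pdk4 encodes a kinase that switches off pyruvate dehydrogenase in fasting and diabetes.

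In the GRCm38 annotation, the build called mm10 in the processing notes, Gckr lies on chr5:31297443-31327314 and Khk on chr5:30921431-30931248, both on the plus strand of the same chromosome. Slc2a2 lies on chr3:28697903-28731359 and Pklr on chr3:89136142-89146784, both on the plus strand. Gpi1 is at chr7:34201330-34230336, Pfkl at chr10:77986947-78010083 and Pdk4 at chr6:5483351-5496309, all on the minus strand. Pfkfb1 is at chrX:150588229-150643878 on the plus strand. An annotated gene on the opposite strand overlapped 4 of the 8, namely 1700112D23Rik at Slc2a2, Gm26762 at Gpi1, Apex2 at Pfkfb1 and Hcn3 at Pklr. Use of strand in counting was not stated, so reads of an overlapping pair cannot be told apart.

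The promoters of Gckr, Slc2a2 and Khk are shown because, within groups, their levels were more closely correlated with each other than those of any other members. That of Pklr is shown because its level was lower in STZ+AOS than in AOS livers. Each sequence is the 250 bases before a RefSeq start site in GRCm38.p6, on the plus strand, at chr5:31297313-31297562 for Gckr, chr3:28697653-28697902 for Slc2a2, chr5:30921309-30921558 for Khk and chr3:89136373-89136622 for the downstream of the 2 Pklr start sites. Capitals mark GTTAAT (a motif of the liver factor HNF1) in Gckr and Khk, CACGTG (an E-box) in Khk, and a match to the consensus of the carbohydrate response element, a pair of E-box-like boxes 5 bases apart, in Pklr.
Gckr: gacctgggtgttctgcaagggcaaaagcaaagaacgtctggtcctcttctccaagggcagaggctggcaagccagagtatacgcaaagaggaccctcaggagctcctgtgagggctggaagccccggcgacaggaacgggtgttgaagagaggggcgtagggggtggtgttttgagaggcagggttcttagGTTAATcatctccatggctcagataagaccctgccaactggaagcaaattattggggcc
Slc2a2: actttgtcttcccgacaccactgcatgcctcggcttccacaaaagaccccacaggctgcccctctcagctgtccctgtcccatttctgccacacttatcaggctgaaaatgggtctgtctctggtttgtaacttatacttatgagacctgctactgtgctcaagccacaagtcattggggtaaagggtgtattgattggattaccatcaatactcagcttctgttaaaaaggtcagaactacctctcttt
Khk: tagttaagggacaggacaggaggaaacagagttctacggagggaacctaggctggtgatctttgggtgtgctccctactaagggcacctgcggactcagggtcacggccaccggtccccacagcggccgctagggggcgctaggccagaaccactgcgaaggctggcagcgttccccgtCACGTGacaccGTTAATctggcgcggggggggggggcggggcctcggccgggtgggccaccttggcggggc
Pklr: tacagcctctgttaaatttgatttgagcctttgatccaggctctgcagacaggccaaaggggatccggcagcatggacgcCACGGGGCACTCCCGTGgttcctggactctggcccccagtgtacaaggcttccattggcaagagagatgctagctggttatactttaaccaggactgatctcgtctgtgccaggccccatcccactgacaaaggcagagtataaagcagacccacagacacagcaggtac
Both strands were searched for these motifs, for the forkhead site GTAAACA, and for a direct repeat of AGGTCA with 1 base between the copies. The element in Pklr lay from base -170 to base -154 relative to the start site, and a match was held by 32 of 32851 mouse promoter windows of the same length (0.097%). GTTAAT lay from base -59 in Gckr and from base -60 in Khk, and 6.43% of all windows held it. CACGTG stood 5 bases before GTTAAT in Khk and was held by 6.02% of windows. The matches in Gckr, Khk and Pklr lay inside the annotated gene spans given above, whose starts lie upstream of these RefSeq start sites. GTTAAT also lay before 1 of the 4 Pfkfb1 start sites, while the windows shown for Slc2a2 and those of Gpi1, Pfkl and Pdk4 held none of these letter strings. These matches describe the reference sequence and were not tested for binding.

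Levels are given in RPKM, a read density that allows for gene length and for how many reads each library mapped. Whole-library sums ranged from 621121 to 806937 RPKM, between 9955 and 10409 genes reached 1 RPKM per liver, and read totals were not analysed here. Relative depth, read from the steps between the lowest values of 16 genes, ranged from 0.927 to 1.09. Each of these measures separated Con from STZ mice. Sums were 749557 to 806937 RPKM in Con and 631126 to 684659 RPKM in STZ mice. Genes at 1 RPKM numbered 9955 to 10069 and 10169 to 10397, and relative depth was 1.038 to 1.085 and 0.933 to 0.998. AOS and STZ+AOS mice were split in the same directions, also without overlap. The part of these differences in the comparisons was not tested. The 6 hepatocyte markers summed to between 35307 and 57325 RPKM in every liver, which matched the tissue label. Summed marker RNA of some other cell types differed between Con and STZ mice, while the endothelial, cholangiocyte, erythroid and neutrophil sums overlapped. Between AOS and STZ+AOS mice, the neutrophil sum was higher and the erythroid sum lower in STZ+AOS mice, without overlap. The 5 stellate cell markers summed to 67.4 to 78.3 RPKM in Con and 106 to 125 RPKM in STZ mice, and to 77.4 to 86.2 RPKM in AOS and 129 to 149 RPKM in STZ+AOS mice. The 6 Kupffer cell markers summed to 52.8 to 82.2 RPKM in Con and 83.3 to 188 RPKM in STZ mice, and the 5 lymphocyte markers to 2.06 to 2.26 and 0.69 to 1.35 RPKM. The hepatocyte sum itself overlapped between STZ and Con mice but was lower in STZ+AOS (39487 to 43171 RPKM) than in AOS mice (49511 to 56554 RPKM). The part of these shifts in the members' values was not tested. Some libraries stood apart from their groups. STZ mouse 3 had the lowest level of its group for 7 of the 8 genes, and STZ+AOS mouse 3 for 6 of 8. The latter liver also had the highest level of 4 of 5 pancreatic acinar cell markers, with Amy2a5 at 10.1 RPKM against at most 0.57 RPKM in the other 17 libraries. The remaining marker, Cela1, was at 4.39 RPKM there, 3.1 and 4.16 RPKM in the other STZ+AOS mice and 30.8 to 40.5 RPKM in Con mice. The sum of the list was 3.19 and 4.16 RPKM in the other STZ+AOS mice. In this liver it was 32.8 RPKM, which lay within the 31.1 to 40.6 RPKM of Con mice. Igfbp1 was at 3757 RPKM in the same liver. Con mouse 1 was lowest of its group for all 8 genes. Results are therefore given with and without these mice where a call rested on them.

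The first comparison asked what streptozotocin changed. Slc2a2, Gpi1, Gckr and Pfkl were higher in STZ livers than in Con livers, and Pklr, Pfkfb1, Khk and Pdk4 did not pass the test. Changes are differences of log2(RPKM + 1), tested with limma over 10602 genes with Benjamini-Hochberg adjustment, and genes with an adjusted p under 0.05 are named as called. Called members were 4 of 8, all higher, while 38.5% of all tested genes were called and 33.0% were called higher. The same 4 members did not overlap between STZ and Con mice, and 47.7% of all genes did not. The median change of the 8 was 0.35 against 0.21 for all tested genes. Since STZ livers had a general upward shift of this size in RPKM, members that moved by little depended on the scaling, and a scaling that set each library to its median ratio brought the all-gene median to -0.0097. Under that scaling 1480 of all tested genes were called higher and 1391 lower, against 3502 and 585 as deposited, and the members called were 3 higher (Slc2a2, Gpi1 and Gckr) and 1 lower (Pfkfb1). In bulk liver RNA, fewer cells of a type and less RNA per cell cannot be told apart.

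Slc2a2 was the member with the widest rise. Its level was 41.0, 71.8 and 53.8 RPKM in Con mice 1 to 3 and 192, 189 and 105 RPKM in STZ mice 1 to 3. The mean rose 2.92-fold, from 55.6 ± 15.5 to 162 ± 49.3 RPKM (SD, n = 3), and every STZ mouse was above every Con mouse. The log2 change was 1.51 ± 0.24 (SE, limma adjusted p = 0.00127), and leaving out any one mouse kept it between 1.32 and 1.80. GLUT2 transport runs in both directions, and this RNA value does not give its direction.

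Gckr, the regulator of glucose phosphorylation, read 37.0, 42.8 and 40.8 RPKM in Con mice and 79.2, 68.4 and 50.2 RPKM in STZ mice. The change was 0.68 ± 0.15 on the log2 scale (limma adjusted p = 0.00653), or 1.64-fold on the means, with no overlap between the groups. STZ mouse 3 was nearest to the Con mice, and leaving out any one mouse kept the log2 change between 0.53 and 0.86, with adjusted p up to 0.0294.

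Among the glycolytic enzymes, Gpi1 was at 51.6, 56.3 and 59.5 RPKM in Con mice and at 154, 140 and 85.3 RPKM in STZ mice. Its log2 change was 1.13 ± 0.20 (limma adjusted p = 0.00223), a 2.27-fold rise of the mean, and even the lowest STZ mouse was above the highest Con mouse. Pfkl, the committed step, moved by little, from 8.79, 10.7 and 10.5 RPKM to 13.5, 13.5 and 11.3 RPKM. The change of 0.33 ± 0.12 on the log2 scale passed the test narrowly (limma adjusted p = 0.0431). It fell to 0.08 under median-ratio scaling (limma adjusted p = 0.487) and was lost when any mouse other than STZ mouse 3 was left out, with adjusted p up to 0.157. A rise of Pfkl beyond the general shift was therefore not shown.

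Pklr, the last step of glycolysis, went the other way in its mean but not beyond the spread. It read 45.5, 67.3 and 54.6 RPKM in Con mice and 46.3, 51.4 and 35.1 RPKM in STZ mice, so that the groups overlapped. The log2 change was -0.33 ± 0.34 (limma adjusted p = 0.473). Pfkfb1 read 12.6, 17.4 and 16.7 RPKM in Con mice and 13.1, 10.4 and 13.4 RPKM in STZ mice. Its change of -0.32 ± 0.19 was not called (limma adjusted p = 0.207), but under median-ratio scaling it was -0.57 and was called lower (adjusted p = 0.0361). For this gene the call thus turned on whether the general shift of STZ livers was removed.

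Khk had the highest level of the 8 genes in every liver. It read 196, 223 and 220 RPKM in Con mice and 307, 296 and 217 RPKM in STZ mice, with STZ mouse 3 inside the Con range. The log2 change was 0.35 ± 0.16 (limma adjusted p = 0.111), and without STZ mouse 3 it was 0.50 and was called (adjusted p = 0.0166). That mouse was lowest of its group, and leaving out other mice gave changes down to 0.25 (limma adjusted p up to 0.289). Pdk4, at 1.87, 2.92 and 2.38 RPKM in Con mice and 3.23, 5.40 and 1.90 RPKM in STZ mice, did not pass either (log2 change 0.35 ± 0.28, limma adjusted p = 0.345). Its level was the lowest of the 8 genes in all but STZ+AOS mouse 3, and STZ mouse 3 lay within the Con range.

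**Figure D1:**
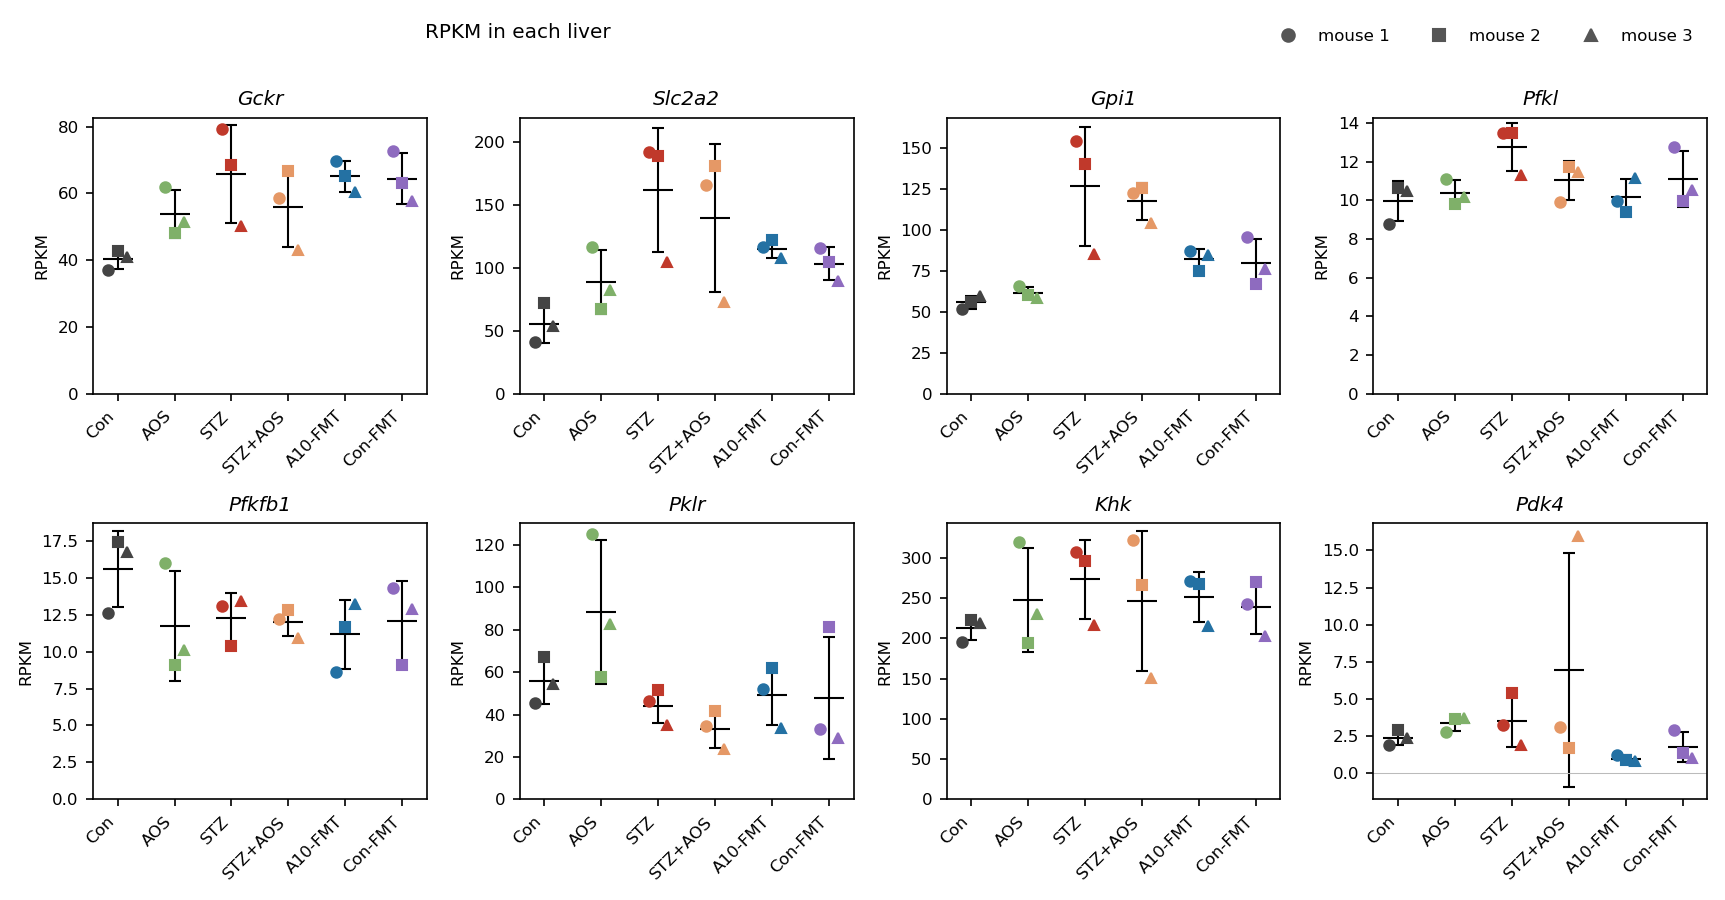
RPKM (linear axis from 0) of the 8 genes in each liver, by group, with circles, squares and triangles for mouse 1, 2 and 3 and black bars for the group mean ± SD (n = 3). Slc2a2 and Gpi1 are at 41.0 to 71.8 and 51.6 to 59.5 RPKM in Con mice and at 105 to 192 and 85.3 to 154 RPKM in STZ mice.

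The next comparisons asked whether either transplant changed these genes within streptozotocin diabetes. None of the 8 was called between A10-FMT and STZ livers, where 0.226% of all tested genes were called, or between Con-FMT and STZ livers, where 0.00943% were. Both comparisons share the STZ mice. At an unadjusted limma p under 0.05 there were 3 members in each, all lower after the transplant, while 20.9% and 20.1% of all tested genes, respectively, were under that threshold. In means, Slc2a2, Gpi1 and Pdk4 stood below the STZ level in both transplant groups and Gckr stood at it.

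Gpi1 was at 86.9, 75.2 and 84.9 RPKM in A10-FMT mice and at 95.8, 66.9 and 76.3 RPKM in Con-FMT mice. All but one of these 6 values were at or below 86.9 RPKM, close to the 85.3 RPKM of STZ mouse 3 and far from the 154 and 140 RPKM of the other STZ mice. The log2 change was -0.57 ± 0.20 for A10-FMT (limma adjusted p = 0.153) and -0.63 ± 0.20 for Con-FMT (adjusted p = 0.130). Without STZ mouse 3 it was -0.83 and -0.89, and both were called (adjusted p = 0.00677 and 0.00428). Slc2a2 was at 116, 122 and 108 RPKM in A10-FMT mice and at 116, 105 and 90.0 RPKM in Con-FMT mice. Its log2 change was -0.43 ± 0.24 in A10-FMT (limma adjusted p = 0.322) and -0.60 ± 0.24 in Con-FMT (adjusted p = 0.198), and without STZ mouse 3 it was -0.72 and -0.88, both called (adjusted p = 0.0358 and 0.0153).

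Pdk4 reached its lowest levels after the transplants. It was at 1.21, 0.88 and 0.79 RPKM in A10-FMT mice, below every STZ mouse, and at 2.87, 1.36 and 1.03 RPKM in Con-FMT mice, which overlapped with the STZ mice. The log2 change was -1.13 ± 0.28 for A10-FMT (limma adjusted p = 0.0812) and -0.69 ± 0.28 for Con-FMT (adjusted p = 0.204). Without STZ mouse 3 both were called, at -1.41 (adjusted p = 0.00968) and -0.98 (adjusted p = 0.0327). Thus 3 of the 8 genes, Slc2a2, Gpi1 and Pdk4, were called lower in each transplant group only when STZ mouse 3 was left out, a setting in which 1347 and 1640 of all tested genes were called against 24 and 1 with that mouse. STZ mouse 3 was lowest of its group for these genes, so leaving it out widened each fall. These calls are therefore not separate evidence of a fall. Leaving out other mice shrank the changes of Slc2a2, Gpi1 and Pdk4 to as little as -0.29, -0.41 and -0.84 in A10-FMT. In Con-FMT they shrank to -0.45, -0.47 and -0.40.

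Pfkl, at 9.97, 9.41 and 11.2 RPKM in A10-FMT mice, was the other member without overlap to STZ mice, and 21.5% of all tested genes had none in that comparison. Its log2 change was -0.30 ± 0.12 (limma adjusted p = 0.183) in A10-FMT and -0.19 ± 0.12 (adjusted p = 0.375) in Con-FMT. Khk differed from STZ by -0.11 ± 0.16 and -0.19 ± 0.16 on the log2 scale (limma adjusted p = 0.731 and 0.543). Gckr, at 69.7, 65.4 and 60.4 RPKM in A10-FMT mice and 72.6, 63.0 and 57.7 RPKM in Con-FMT mice, lay within the range of the STZ mice in all 6 transplanted animals.

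Set against Con instead, 2 of the 8 genes were called higher in A10-FMT livers, where 18.4% of all tested genes were called and 15.9% called higher, and the same 2 in Con-FMT livers, where 19.4% were called and 17.5% called higher. Both comparisons share the Con mice. Under median-ratio scaling the all-gene calls were 665 higher and 490 lower in A10-FMT and 519 higher and 347 lower in Con-FMT. The 2 genes were Slc2a2 and Gckr. The log2 change of Slc2a2 was 1.08 ± 0.24 in A10-FMT (limma adjusted p = 0.0135) and 0.92 ± 0.24 in Con-FMT (adjusted p = 0.0250). That of Gckr was 0.68 ± 0.15 in A10-FMT (limma adjusted p = 0.0140) and 0.66 ± 0.15 in Con-FMT (adjusted p = 0.0163). These 4 calls rested on Con mouse 1, which was lowest for both genes. Without it the adjusted p was 0.0612 and 0.103 for Slc2a2 and 0.0617 and 0.0674 for Gckr, with log2 changes still between 0.61 and 0.88. Leaving out A10-FMT mouse 1 also ended the Gckr call (adjusted p = 0.0550), and leaving out Con mouse 3 or Con-FMT mouse 1 ended both Con-FMT calls. The Con-FMT call of Slc2a2 was also lost under median-ratio scaling (0.70, adjusted p = 0.0609) and with all 6 groups in the fit (adjusted p = 0.0572), and quantile normalization ended the Con-FMT calls of both Slc2a2 and Gckr (adjusted p = 0.0836 and 0.0582).

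Gpi1 was above every Con mouse in all 6 transplanted mice and was not called, at 0.55 ± 0.20 on the log2 scale in A10-FMT (limma adjusted p = 0.0761) and 0.49 ± 0.20 in Con-FMT (adjusted p = 0.102). Pfkfb1 was at 8.62, 11.7 and 13.2 RPKM in A10-FMT mice and 14.3, 9.08 and 12.9 RPKM in Con-FMT mice, with log2 changes of -0.45 ± 0.19 and -0.35 ± 0.19 against Con (limma adjusted p = 0.113 and 0.199). Pdk4 in A10-FMT mice was below all Con mice (log2 change -0.78 ± 0.28, limma adjusted p = 0.0744), while in Con-FMT mice it overlapped with them (-0.35 ± 0.28, adjusted p = 0.394). Under median-ratio scaling, Pfkfb1 and Pdk4 were both called lower in A10-FMT livers (log2 change -0.64 and -0.92, adjusted p = 0.0413 and 0.0427).

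Pklr varied within both transplant groups. It was at 51.9, 61.9 and 33.7 RPKM in A10-FMT mice and at 33.2, 81.2 and 29.1 RPKM in Con-FMT mice, where mouse 2 stood well above the others. Without Con-FMT mouse 2, Pklr was called lower in Con-FMT than in Con livers (log2 change -0.81, limma adjusted p = 0.0477), a call that was not made with all 3 mice (-0.35 ± 0.34, adjusted p = 0.475). Between the 2 transplants directly, no member and 0% of all tested genes were called by limma, and no member had an unadjusted p under 0.05, against 303 of all genes. The log2 changes of the 8 genes in A10-FMT against Con-FMT lay between -0.44 (Pdk4, SE 0.28) and 0.16 (Slc2a2, SE 0.24). With 3 mice a group, differences several times these errors could also go uncalled. The change of Pdk4 in A10-FMT against STZ, -1.13 ± 0.28, was such a case.

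**Figure D2:**
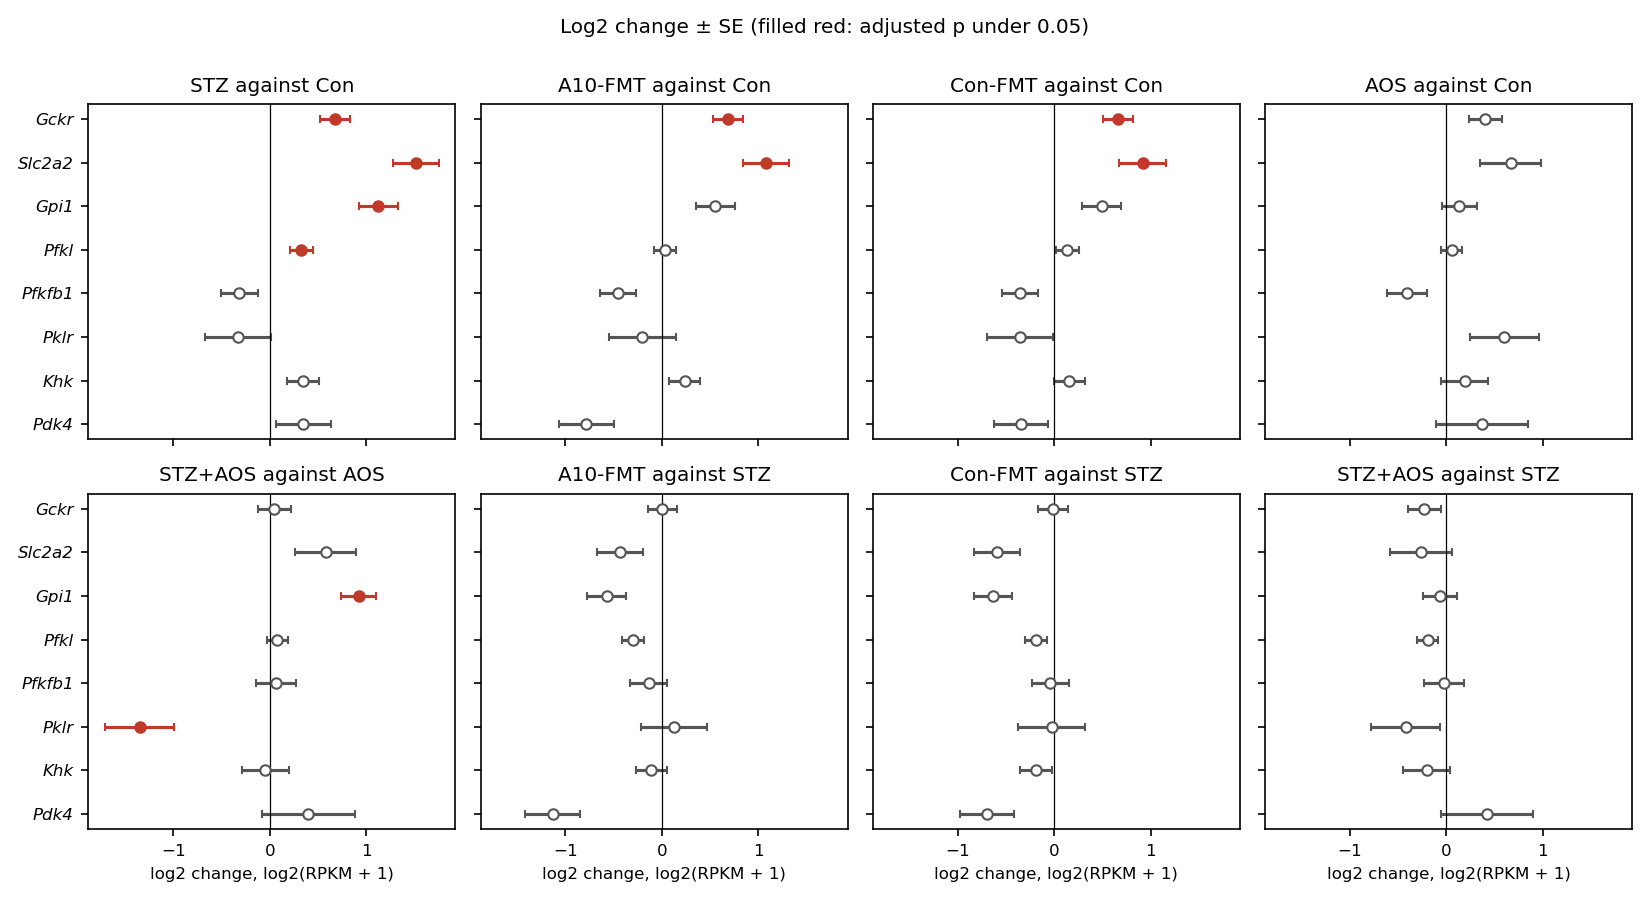
Log2 change of log2(RPKM + 1) with its SE (limma) for the 8 genes in 8 comparisons of 3 against 3 mice, red and filled where the adjusted p was under 0.05. Gckr and Slc2a2 are filled in all 3 comparisons of streptozotocin groups with Con (0.66 to 0.68 and 0.92 to 1.51), none of the 8 is filled against STZ, and Pklr is filled against AOS alone (-1.35).

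AOS given by itself was compared with Con in a fit of all 6 groups over 10822 genes. None of the 8 genes was called, and neither were others beyond 0.00924% of all tested genes. By unadjusted limma p under 0.05 there was 1 member, Gckr, at 61.8, 48.0 and 51.4 RPKM in AOS mice, while 7.22% of all tested genes were under that threshold. All 3 were above every Con mouse, which held for no other member and for 24.4% of all genes in either direction (log2 change 0.40 ± 0.17, limma adjusted p = 0.660). Slc2a2 was at 117, 67.0 and 82.7 RPKM (0.67 ± 0.32, adjusted p = 0.687) and overlapped with Con mice. Pklr was at 125, 57.5 and 82.6 RPKM, including the highest value of any liver (0.60 ± 0.36, limma adjusted p = 0.778). Pfkfb1 was at 16.0, 9.11 and 10.1 RPKM (-0.41 ± 0.20, limma adjusted p = 0.701).

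AOS on top of streptozotocin gave no called member, and 0% of all tested genes were called by limma, with 657 genes but no member at an unadjusted p under 0.05. Gckr was at 58.6, 66.6 and 43.0 RPKM in STZ+AOS mice (log2 change against STZ -0.23 ± 0.17, limma adjusted p = 0.815), and Pklr was at 34.6, 41.5 and 23.7 RPKM (-0.42 ± 0.36, adjusted p = 0.830). Pdk4 was at 3.11, 1.71 and 16.0 RPKM, and its change of 0.42 ± 0.48 (limma adjusted p = 0.870) became -0.36 without STZ+AOS mouse 3. That mouse, in which the 4 pancreatic RNAs were highest, had the highest Pdk4 of all 18 livers and the lowest Khk, at 151 RPKM. The part of its other features in these values was not tested.

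The effect of streptozotocin in AOS-treated mice, STZ+AOS against AOS, compares other mice than STZ against Con. Its error was estimated over all 6 groups, so the p-values of the 2 comparisons are not independent. Here 2 of the 8 genes were called, while 37.9% of all tested genes were called, 31.8% higher and 6.11% lower (under median-ratio scaling, 1323 genes higher and 1325 lower, with the same 2 members called). Gpi1 rose from 65.6, 60.2 and 58.4 RPKM in AOS mice to 122, 126 and 104 RPKM in STZ+AOS mice. The change was 0.92 ± 0.18 on the log2 scale (limma adjusted p = 0.00160), every mouse being above every AOS mouse, and it remained between 0.87 and 1.01 when any one mouse was left out. Pklr fell in the same comparison by 1.35 ± 0.36 on the log2 scale (limma adjusted p = 0.00935), with no overlap, and the largest adjusted p on leaving out a mouse was 0.0451. Slc2a2, at 166, 181 and 72.8 RPKM in STZ+AOS mice, was not called (0.58 ± 0.32, limma adjusted p = 0.159) unless STZ+AOS mouse 3 was left out (0.99, adjusted p = 0.0149). That mouse was lowest of its group, and leaving out other mice gave changes down to 0.34 (limma adjusted p up to 0.446).

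Whether AOS acted differently with and without streptozotocin was tested as an interaction. No member was called, 0% of all genes were, and 584 genes, with 1 member among them, had an unadjusted limma p under 0.05. The difference of the AOS effects was -0.63 ± 0.24 for Gckr, -0.93 ± 0.45 for Slc2a2 and -1.02 ± 0.51 for Pklr on the log2 scale, each with limma adjusted p = 0.856. The fall of Pklr in STZ+AOS against AOS, with no call in STZ against Con, was thus not shown to be a difference between the 2 settings.

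Ordered by group mean, Gpi1 had its highest levels in STZ and STZ+AOS livers, then in both transplant groups, then in AOS and Con livers, and mice did not overlap between these 3 steps except STZ mouse 3. Gckr was lowest in Con, which overlapped with no neighbour in the order, while the other 5 groups overlapped from one to the next. For Slc2a2, Pfkl, Pfkfb1, Pklr, Khk and Pdk4 every group overlapped with its neighbours.

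Some of the members varied together from mouse to mouse. Over the 18 livers, log2 levels of Gckr and Slc2a2 had a Pearson r of 0.88, and of 0.92 once each group's mean was removed. Slc2a2 and Khk had r of 0.75 and 0.90, and Gckr and Khk 0.71 and 0.84. Slc2a2 and Gpi1 had r of 0.83 and 0.65, and Gckr and Gpi1 0.65 and 0.80. These values describe livers that share libraries and scaling, and no test was made. The promoters of Gckr and Khk shown above both held GTTAAT and that of Slc2a2 did not. Pklr followed Khk, Slc2a2 and Gckr mainly within groups. Its r with these was 0.46, -0.05 and 0.04 over all livers and 0.75, 0.64 and 0.56 after removing group means. Pfkfb1 had no r above 0.52 in size with any other member. Pfkl had r of 0.07 with Khk and -0.04 with Pklr after removing group means. Pdk4 went against most of the others on that scale, with r of -0.27 to Gckr, -0.38 to Slc2a2, -0.44 to Khk, -0.24 to Pklr and -0.22 to Pfkfb1, and had r of 0.12 to Gpi1 and 0.35 to Pfkl.

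**Figure D3:**
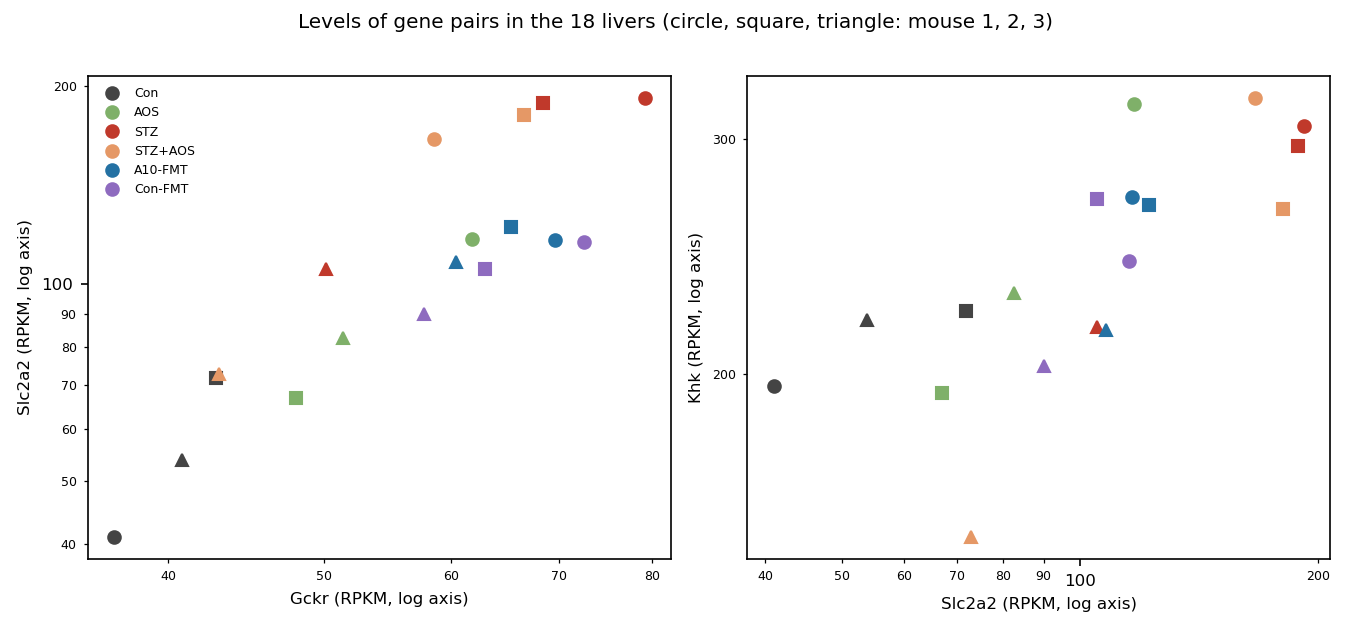
RPKM of Gckr against Slc2a2 and of Slc2a2 against Khk in the 18 livers, on log axes, coloured by group with a marker shape per mouse number. Gckr and Slc2a2 rise together (r = 0.88 on the log2 scale), with Con mice at the lower left and STZ mice 1 and 2 at the upper right, while STZ mouse 3 and STZ+AOS mouse 3 lie low within their groups.

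Among the 10822 genes tested in the 6-group fit, those most like each member over the 18 livers were listed by r. Slc10a1, the hepatocyte bile salt uptake transporter, was near the top for Gckr (r = 0.95). Pank1, a pantothenate kinase, and Phykpl were nearest to Slc2a2 (0.96 and 0.95), and the mitochondrial ATP-ADP carrier Slc25a5 and Slc22a26 to Gpi1 (0.98 each). Gtf2ird1 and Arl4a were nearest to Pdk4 (0.95 and 0.94), a pattern led by STZ+AOS mouse 3 in Pdk4. Pklr was nearest to Mrnip (0.89) and to Hcn3 (0.87), the opposite-strand gene whose annotated span overlaps Pklr by 711 bases. Khk was nearest to Dis3l2 (0.87) and Gstm7 (0.86), and Pfkl to Pigx and Kdr (0.86 each). Pfkfb1 had no close match, with Cbx5 at 0.69 and Glt8d1 at 0.68.

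Other genes of these pathways were read from the same fits. In STZ against Con, 33 of 61 tested genes on the lists were called higher and 4 lower, members left out, with a median log2 change of 0.57 against 0.21 for all tested genes. Under median-ratio scaling 24 were called higher and 7 lower, with a median of 0.31. Among glycolytic enzymes 10 of 14 were called higher and none lower, with a median of 0.68, and under median-ratio scaling 7 were higher, with a median of 0.42. Eno1, an enolase, rose by 1.41 ± 0.21 (limma adjusted p = 0.00102) and the phosphoglycerate kinase Pgk1 by 0.84 ± 0.17 (adjusted p = 0.00420). The change of Gpi1, 1.13, lay between those of Pgk1 and Eno1, while Pfkl and Pklr stood below the median of the list.

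On the list of glucose uptake and phosphorylation, 4 of the 5 other tested genes were called higher and 1 lower (3 and 1 under median-ratio scaling). The 4 higher ones were all Slc2a transporters, and these RNA values do not give uptake of glucose. Slc2a5, the fructose transporter GLUT5, rose by 1.16 ± 0.22 (limma adjusted p = 0.00266) from a low level, 1.92 to 2.28 RPKM in Con mice and 4.39 to 9.40 RPKM in STZ mice. Slc2a9 and Slc2a8 rose by 0.76 ± 0.15 and 0.65 ± 0.15 (limma adjusted p = 0.00328 and 0.00626). On the fructose and polyol list 4 of 6 were called higher, among them Slc2a5 and the triokinase Tkfc (0.79 ± 0.19, limma adjusted p = 0.00887), while Khk itself was not called. Under median-ratio scaling Tkfc lost its call (0.52, adjusted p = 0.0573), and 2 genes of that list were higher and 1 lower. Of the fructose 2,6-bisphosphate enzymes besides Pfkfb1, 1 of 3 was called, Pfkfb2, which was higher by 0.64 ± 0.13 (limma adjusted p = 0.00420).

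Around pyruvate dehydrogenase, the enzyme that Pdk4 inhibits, 8 of 11 genes were called higher and none lower, and 7 under median-ratio scaling. This list mixes subunits of the enzyme with its inhibiting kinases, its activating phosphatases, pyruvate carriers and pyruvate carboxylase, so the count does not give its activity. The kinase Pdk2, named after its values were seen, was at 34.3 to 38.8 RPKM in Con and 64.5 to 110 RPKM in STZ mice. The kinases Pdk1 and Pdk3 overlapped between these groups. Pdha1, its catalytic subunit, rose by 1.13 ± 0.15 (limma adjusted p = 0.000615), Dld by 0.78 ± 0.13 (adjusted p = 0.00192) and pyruvate carboxylase, Pcx, by 0.93 ± 0.16 (adjusted p = 0.00205). In the pentose phosphate pathway 1 of 8 was called higher and 1 lower, with a median of 0.0022, and under median-ratio scaling 2 were lower and none higher. The lower one, Taldo1, fell by 0.29 ± 0.10 (limma adjusted p = 0.0379), and the higher one, H6pd, changed by 0.32 ± 0.11 (adjusted p = 0.0385) and by 0.05 under median-ratio scaling (adjusted p = 0.774).

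Regulators split, with 4 of 12 called higher and 2 lower (3 and 3 under median-ratio scaling). Ppargc1a, a coactivator of the fasting response, rose by 1.86 ± 0.28 (limma adjusted p = 0.00105), Hnf4a by 0.75 ± 0.11 (adjusted p = 0.00102) and Foxo1, the forkhead factor held out of the nucleus by insulin, by 0.77 ± 0.15 (adjusted p = 0.00325). Mlxipl, which encodes ChREBP, the factor of the carbohydrate response element, was 1 of the 2 lower regulators (-0.61 ± 0.19, limma adjusted p = 0.0262) and was named after its values were seen because of the element in the Pklr promoter. Of 4 genes that insulin represses in liver, 3 were higher in STZ than in Con livers, with Pck1 at 2.76 ± 0.29, Igfbp1 at 4.16 ± 0.54 and Irs2 at 1.55 ± 0.20 (limma adjusted p = 0.000292, 0.000564 and 0.000568).

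None of the 61 list genes was called in A10-FMT or in Con-FMT against STZ livers. In STZ+AOS against AOS, 28 of 63 were called higher and 3 lower, with a median of 0.29 against 0.21 for all tested genes, and 11 of 15 glycolytic enzymes were higher, with a median of 0.70. By share the insulin-repressed genes were similar, 3 of 4 higher, with a median of 1.90. Under median-ratio scaling 20 of the 63 were higher and 8 lower, with a median of 0.058 against 0.012 for all tested genes. On that scale 8 glycolytic enzymes were higher and 0 lower, with a median of 0.49. Of the insulin-repressed genes 3 were higher and 1 lower, with a median of 1.67.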

How the data were processed

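Liver RNA of 18 ICR mice was sequenced by the authors after poly(A) selection, without a stated strand setting. The deposited values are RPKM per gene symbol, made by the authors. The submitters' processing notes name Bowtie 0.12.2 and mm10, and the study's methods name another aligner. Read counts were not analysed here. All 18 columns matched a sample title, and 0 columns were left unassigned.

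RPKM values were taken as deposited, log2(RPKM + 1) was formed, and the filter kept genes that reached 1 RPKM in 3 or more libraries of a fit (pseudocount 1). The limma package (3.58.1, under R 4.3.3) fitted each contrast with a mean-variance trend, with Con, STZ, A10-FMT and Con-FMT in 1 fit and all 6 groups in the other, and p was adjusted by Benjamini-Hochberg over all tested genes. Fold changes on this scale understate changes of genes near 1 RPKM, such as Pdk4. Labels give separate samples per group, and p-values measure the spread between these samples. The code was tested on simulated data.

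The members and gene lists were chosen with earlier results of these data known. The genes named were all members, at most 3 called genes per list, ranked by adjusted p in the STZ contrast with Con, and the 2 genes with the highest r to each member, and some genes this rule names are not reported here. Promoters came from RefSeq (GRCm38.p6) by symbol, with a window for all 8 members, and gene positions from GENCODE M21. Alternatives covered scaling, pseudocount, filters, variance trend, samples in the fit, a replicate block and leaving out each mouse.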

Additional observations from a re-analysis of the deposited data

Results flagged for a closer look

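Pklr was picked out because all 3 AOS mice were above the Con mean and all 3 STZ+AOS mice were below the STZ mean, with log2 changes of 0.60 and -0.42. The interaction test of this difference did not pass (limma adjusted p = 0.856). The same pattern of signs held for Gpi1, at 0.14 and -0.067 on the log2 scale, and its interaction did not pass either (limma adjusted p = 0.956). Of 5 pancreatic acinar RNAs, 4 stood out in STZ+AOS mouse 3 and were too low in the other libraries to pass the filter. In that mouse Amy2a5 was at 10.1 RPKM, Prss2 at 7.74 RPKM, Pnlip at 7.23 RPKM and Cpa1 at 3.31 RPKM. In Con mice they were at most 0.04, 0.27, 0.14 and 0.04 RPKM. The fifth, Cela1, passed the filter. It was at 4.39 RPKM in that mouse, 3.1 and 4.16 RPKM in the other STZ+AOS mice and 30.8 to 40.5 RPKM in Con mice.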

How the results depend on the processing

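The number of members called in STZ against Con was 3 to 5 over all alternatives (3 with the replicate block). No member was called under any alternative in the interaction, in STZ+AOS against STZ, between the 2 transplants or in AOS against Con. In STZ+AOS against AOS the number was 2 to 3. In A10-FMT against Con it was 2 as reported, 4 with median-ratio scaling, 4 with quantile normalization, 4 with only the compared groups in the fit, and 0 to 2 when 1 mouse was left out. Gpi1 was also called there with all 6 groups in the fit (limma adjusted p = 0.0467), and Pdk4 with a pseudocount of 0.1 (limma adjusted p = 0.0499). In Con-FMT against Con it was 2 as reported, 1 with median-ratio scaling, 0 with quantile normalization, 1 with all 6 groups in the fit, 3 with only the compared groups in the fit (Gpi1 added), and 0 to 3 when 1 mouse was left out. For each transplant against STZ it was 0 to 3 when 1 mouse was left out, 3 being the value without STZ mouse 3, and 0 under every other alternative. The change of Pdk4 in STZ+AOS against STZ turned to -0.36 without STZ+AOS mouse 3, and lay between -0.36 and 0.96 when 1 mouse was left out. Among 1198 alternative values of a single gene, 69 changed sign, none of them called before or after, 23 lost a call and 20 gained one, and the cause was not tested. Counts over all tested genes ran from 2580 to 5017 in STZ against Con, from 0 to 1347 in A10-FMT against STZ and from 0 to 1640 in Con-FMT against STZ, where 4087, 24 and 1 were reported, and from 577 to 3355 in A10-FMT against Con (1953) and 600 to 2128 in Con-FMT against Con (2059). Same-numbered mice did not deviate together across the groups as a whole (r between -0.25 and 0.47 in 45 pairs, 16 of them over 0.1), so the numbers were not taken to pair the mice. In 1 of 15 pairs of groups, A10-FMT and Con-FMT, all 3 same-numbered pairs were over 0.1 (0.12, 0.29 and 0.18), and with the replicate block that comparison still had 0 called members. The replicate block changed no count of called members other than that in STZ against Con. With 3 mice a group and no counts, genes near 1 RPKM such as Pdk4 are the least certain.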
